A study of Homo sapiens with 18 samples.

Results

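The clustered protocadherins are 53 protein-coding genes that lie side by side on chromosome 5, all transcribed from the plus strand, in an alpha cluster of 15 genes, a beta cluster of 16 genes and a gamma cluster of 22 genes. They were taken from the GENCODE annotation of hg38 by their symbols (PCDHA, PCDHB and PCDHG), out of 20007 protein-coding genes. Their chromatin was read from Cut&Tag libraries of MOLM-13, an established line of human acute myeloid leukemia cells that carry a KMT2A rearrangement. In Cut&Tag an antibody against a histone modification guides the Tn5 transposase to cut and tag the DNA around it. The cells had been treated for 72 h with 100 nM PR-957 (ONX-0914), an inhibitor of the immunoproteasome subunit PSMB8, or with the diluent DMSO alone. H3K27ac, H3K27me3, H3K4me1 and H3K4me3 were each profiled in 2 libraries with PR-957 and 2 with DMSO, which makes 16. IgG controls, 2 samples, were not used here. The labels do not say whether the 2 libraries of a group came from separate cultures, so p-values measure the spread between these libraries only, which may be technical. MOLM-13 is 1 cell line, and all values belong to it.

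The authors counted reads or fragments on a list of intervals for each modification, and the 4 libraries of a modification share that list. Total counts ran from 9885836 to 14165777 per library for H3K27ac, from 10032503 to 12047958 for H3K27me3, from 15204186 to 30584219 for H3K4me1 and from 30070119 to 44591150 for H3K4me3. A gene was matched to the intervals that overlap 2 kb on either side of one of its transcription start sites (TSS), overlapping intervals were joined to a locus, and the widest interval stood for the locus. Counts exist on listed intervals only, so a promoter without one has no measured level and is described below as having no listed interval. The marker genes fixed for this cell line bore out its label in part. All 8 myeloid markers (SPI1, CEBPA, CD33, MPO, LYZ, FLT3, CSF1R and ITGAM) had an H3K27ac interval and 7 had an H3K4me3 interval, whereas none of the 4 T cell markers had either. H3K27ac intervals lay at 3 of 4 B cell markers and at 1 of 4 erythroid, 1 of 4 epithelial and 1 of 4 neural markers. H3K4me3 intervals lay at 2 of 4 B cell, 2 of 4 erythroid, 3 of 4 epithelial and 2 of 4 neural markers, so this modification separated the lists less.

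Clustered protocadherins are adhesion proteins of the cell surface that are best known from neurons, where each cell makes its own combination of them. In the alpha and gamma clusters each gene contributes a long variable first exon with a promoter of its own, which is spliced to constant exons shared by the cluster, whereas beta genes have no shared constant exons. CTCF and cohesin bind at most of these promoters and at distal enhancers and loop them together, and a promoter that is not chosen is often methylated at its DNA. The C-type genes at the end of the alpha and gamma clusters (PCDHAC1, PCDHAC2, PCDHGC3, PCDHGC4 and PCDHGC5) are known to be used more evenly across cells than the others. H3K4me3 and H3K27ac mark active promoters, H3K4me1 marks enhancers and promoter flanks, and H3K27me3 is the mark of Polycomb repression.

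Most clustered protocadherin promoters carry a conserved element around the letters CGCT. RefSeq (GRCh38.p14) gave a window from 250 bases before to 50 bases after the start for 47 of the 53 genes, and all 47 were identical to hg38. In 31 of the 47 the RefSeq start was within 5 bases of the GENCODE gene start. It lay 2476 bases from it at PCDHGA8, 774 at PCDHA11, 610 at PCDHA9 and 142 at PCDHGB2. PCDHA9 holds the window without CGCT. CGCT stood on the sense strand in 46 of these windows, in 12 of 13 alpha, 14 of 14 beta and 20 of 20 gamma windows. The same 4 letters are common, and 65.7% of the windows of 15297 other protein-coding genes hold them. From genes with a single CGCT, a 38-base consensus was made for each cluster, and in each window the CGCT most like it was taken, so that a close match follows in part from how the consensus was made. Windows of other genes were not matched to it. The median match was 28.5 of 38 bases for alpha, 29 for beta and 28 for gamma genes, and the CGCT began at a median of -59 bases from the RefSeq start. The lowest match was 14 for alpha, 18 for beta and 9 for gamma genes, and the positions ran from -199 to 3. Whether the CGCT taken in each window belongs to the conserved element was not tested. The windows below show promoters with and without marks. First come the 3 gamma promoters with an H3K4me3 interval, then 3 of the gamma promoters without one, as examples for which no rule was set. An alpha and a beta window that match their consensus best follow (PCDHA2, tied with PCDHA8 at 30 of 38 bases, and PCDHB16, tied with PCDHB13 at 33). These last windows have no listed interval of any modification. Capitals mark CGCT, and all run 5′ to 3′ on the plus strand.
PCDHGC3 (chr5:141475872-141475909): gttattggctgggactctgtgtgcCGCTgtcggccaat
PCDHGA11 (chr5:141420964-141421001): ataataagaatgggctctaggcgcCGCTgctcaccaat
PCDHGB3 (chr5:141370154-141370191): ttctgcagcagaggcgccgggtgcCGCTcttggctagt
PCDHGC4 (chr5:141484944-141484981): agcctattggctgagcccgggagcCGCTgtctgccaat
PCDHGA6 (chr5:141373827-141373864): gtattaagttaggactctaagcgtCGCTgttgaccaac
PCDHGA10 (chr5:141412923-141412960): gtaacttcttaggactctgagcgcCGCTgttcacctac
PCDHA2 (chr5:140794773-140794810): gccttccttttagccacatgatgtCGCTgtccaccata
PCDHB16 (chr5:141182302-141182339): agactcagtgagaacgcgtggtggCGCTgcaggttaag

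The 3 marked gamma promoters were not those closest to the gamma consensus. PCDHGA10, without a listed interval, matched it at 35 of 38 bases and PCDHGA6 at 32, whereas PCDHGC3 and PCDHGA11 matched at 27 and PCDHGB3 at 18. PCDHGC4, without an H3K4me3 interval, matched at 17. Gamma windows without an H3K4me3 interval ranged from 9 at PCDHGB7 to 35 at PCDHGA10. PCDHGA10, PCDHGA6, PCDHGA11 and PCDHGC4 hold a single CGCT and were among the 13 genes that made the gamma consensus. PCDHGC3 with 5 CGCT and PCDHGB3 with 2 were not among them. Their lower match is therefore in part fixed by how the consensus was made, and no conclusion is drawn from it. The CGCT of PCDHGC3 began at -70, that of PCDHGA11 at -63 and that of PCDHGB3 at -64. Among all 8-letter words counted on both strands, AGCGCCAC was in the most windows, 13 of the 47, tied with 2 words that overlap it. All 13 were in the beta cluster, which has 14 windows. On the other strand it reads gtggCGCT, as in PCDHB16 above and in the beta consensus, so it is part of the same element. It was picked as the most shared word of these same windows, so an excess over other genes follows in part from that choice. AGCGCCAC stood in 1.46% of the windows of other genes. TATAAA was found on either strand in 6 of 47 protocadherin windows, against 9.73% of the others.

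No alpha and no beta gene had a listed interval of any of the 4 modifications. In the gamma cluster, 3 of 22 genes had an H3K4me3 interval (PCDHGB3, PCDHGA11 and PCDHGC3), 2 had an H3K4me1 interval (PCDHGC3 and PCDHGC5), and PCDHGC3 had the sole H3K27ac intervals. No member of any cluster had an H3K27me3 interval. In all, 49 of 53 genes (92.5%) had no listed interval, and PCDHGC3 was the one gene with H3K27ac, H3K4me1 and H3K4me3 together. As a background, 66.8% of 19121 other protein-coding genes had an H3K4me3 interval within the same window, 63.1% an H3K27ac, 45.4% an H3K4me1 and 20.8% an H3K27me3 interval, and 20.4% had none. These shares describe genes that share neighbourhoods and intervals, and were not tested.

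The empty stretch was continuous. Between the end of an H3K4me3 interval upstream of the alpha cluster and the start of one at TAF7, a general transcription factor gene just before the gamma cluster, 592.3 kb (chr5:140726473-141318809) held no interval of any modification, and 33 protein-coding gene starts lay in it. Of these 31 were protocadherins, which are all 15 alpha and all 16 beta genes, and the others were SLC25A2, a mitochondrial ornithine carrier gene, and a gene without a symbol (ENSG00000279983). Within the whole genome, 3414 stretches between listed intervals held at least 1 protein-coding gene start, with a median of 1, and 12 of them held 33 or more. The 5′ ends of alpha genes lay 59663 to 239997 bases from the nearest H3K4me3 interval, and those of beta genes 73414 to 267435 bases. The gamma genes were nearer, with a median of 9980 bases.

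For H3K27me3 the distances were larger still. The nearest interval was 204227 bases from the 5′ end of PCDHGC5 and 185238 bases from the internal start of PCDHGC3 described below, and for the 5′ ends of alpha genes the distance was at least 629562 bases. The list for this modification does hold other protocadherin genes. Of 12 non-clustered protocadherins, which are single genes outside these clusters, 7 had an H3K27me3 interval and 5 an H3K4me3 interval. The widest was at PCDH1, which lies on the same chromosome arm downstream of the gamma cluster, where H3K27me3 covered 30898 bases at 4.82 counts scaled to library size (CPM) per kb in DMSO.

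Reads that map to more than 1 place can be lost before intervals are called, so the share of each promoter that has a second copy was measured. In the 1 kb on either side of the start, each 31-base word was looked up in the 261 alternate contigs of hg38 and in the rest of the primary chromosomes. Genes with 50% or more of their words in an alternate contig rarely had a listed interval, with H3K4me3 at 2.4% of 833 such genes against 66.6% of 19174 others. No member was among these 833 genes. The share in alternate contigs was 0% at the median member and at most 9.49%, for PCDHGA7. Copies elsewhere on the primary chromosomes, the other protocadherins included, reached 44% at PCDHB8 and had a median of 2.89%. These copies were counted for the members only, so the values have no background. Of the 12 stretches with 33 or more gene starts, 7 had a median of 50% or more in alternate contigs, and the protocadherin stretch had 0%. Whether lost reads account for promoters without a listed interval was not tested.

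Protocadherin promoters held few CG pairs, the sites of DNA methylation. The median was 7 in the 300-base window for members, with 7 for alpha, 7.5 for beta and 7 for gamma genes, against 23 for 14703 other genes outside the copied set. Of the 1671 other genes with 5 to 10 pairs, the middle range of the members, 42.7% had an H3K4me3 interval and 33.5% had none of the 4 modifications. Of the 30 members in that range, 1 had an H3K4me3 interval (PCDHGB3) and 29 had none. Above 10 pairs, 82.7% of 10765 other genes had an H3K4me3 interval, and 2 of 11 members did (PCDHGA11 with 12 pairs and PCDHGC3 with 18). PCDHAC1 with 27 pairs and PCDHGC4 with 23 held more than PCDHGC3 and had no listed interval within 2 kb of a start. Whether CG content accounts for the promoters without a listed interval was not tested, and DNA methylation was not measured here.

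The marked sites of the gamma cluster differed in which modifications they carried and at what level. PCDHGC3, the first of the C-type genes, had H3K4me3 from 677 bases before to 2929 bases after its start (chr5:141475270-141478876), over its promoter and variable first exon. Counts there were 496 and 490 in DMSO and 332 and 331 in PR-957, or 11.1, 11.8, 10.9 and 10.9 CPM. Per length the DMSO mean was 3.17 ± 0.132 CPM per kb (SD, n = 2), at the percentile 50.4 among all 16123 H3K4me3 loci. H3K27ac at the same promoter (chr5:141475245-141477399) was low, with 21 and 30 counts in DMSO and 36 and 40 in PR-957, and its 1.07 ± 0.471 CPM per kb in DMSO (SD, n = 2) stood at the percentile 20.6. H3K4me1 (chr5:141475688-141481232) reached further into the gene and had 128 and 107 counts in DMSO and 72 and 92 in PR-957, at 0.794 ± 0.0176 CPM per kb in DMSO (SD, n = 2) and the percentile 23.9.

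PCDHGB3 and PCDHGA11 carried H3K4me3 in short, weak intervals. At PCDHGB3 the interval (chr5:141369750-141370920) spans the start and the first part of the first exon in 1170 bases, which is narrower than all but 1.43% of H3K4me3 loci. Its 37 and 30 counts in DMSO came to 0.662 ± 0.0647 CPM per kb (SD, n = 2), at the percentile 11.6. At PCDHGA11 the interval (chr5:141420731-141422217) had 93 and 74 counts in DMSO and 68 and 54 in PR-957, with 1.3 ± 0.144 CPM per kb in DMSO (SD, n = 2) at the percentile 28.4. PCDHGC3 therefore had the highest H3K4me3 per length of the 3 promoters, PCDHGA11 was next and PCDHGB3 lowest, and the DMSO libraries of these 3 did not overlap in CPM per kb. Neither PCDHGB3 nor PCDHGA11 had a listed H3K27ac or H3K4me1 interval.

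PCDHGC5, the last gene of the cluster, had H3K4me1 alone (chr5:141487200-141489982). The interval runs from 1881 bases before to 901 bases after its start and also takes in the end of the first exon of PCDHGC4. It held 66 and 55 counts in DMSO and 24 and 48 in PR-957, at 0.815 ± 0.0163 CPM per kb in DMSO (SD, n = 2) and the percentile 25.3. PCDHGC4, between PCDHGC3 and PCDHGC5, had no listed interval within 2 kb of its start. That start was 6121 bases from the nearest H3K4me3 interval, and 2203 bases from the nearest H3K4me1 interval, just outside the window.

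The strongest H3K4me1 and H3K27ac signals of the gamma cluster lay not at a variable exon but near the constant exons, at a further annotated start inside PCDHGC3. This start lies between the second and the third of the 3 constant exons that all 22 gamma genes share (chr5:141494807-141494865, chr5:141505393-141505481 and chr5:141510947-141512975). H3K4me1 covered 19824 bases there (chr5:141503861-141523685), wider than 99.1% of H3K4me1 loci. Its counts were 3266 and 2476 in DMSO and 1530 and 2307 in PR-957, or 5.4 ± 0.253 CPM per kb in DMSO (SD, n = 2), at the percentile 99.4. This interval takes in 2 of the constant exons and 8669 bases of DIAPH1, the formin gene on the other side, whose 3′ end faces the cluster, so its counts cannot be assigned to PCDHGC3 or DIAPH1. H3K27ac (chr5:141506905-141511756) had 166 and 140 counts in DMSO and 135 and 191 in PR-957, at 2.75 ± 0.226 CPM per kb in DMSO (SD, n = 2) and the percentile 71.1. H3K4me3 (chr5:141506528-141510762) had 387 and 296 counts in DMSO and 261 and 214 in PR-957, at 1.86 ± 0.258 CPM per kb in DMSO (SD, n = 2) and the percentile 35.8. H3K4me1 and H3K27ac per length were thus higher here than at the PCDHGC3 promoter in all 4 libraries of each modification, and H3K4me3 was lower in all 4.

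**Figure D1:**
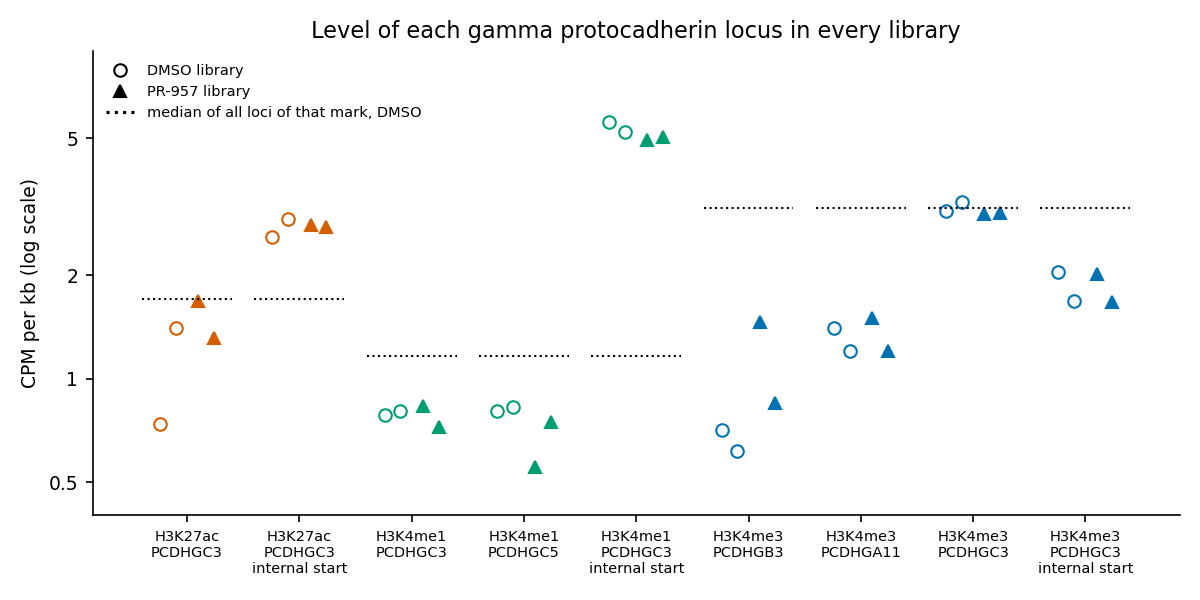
CPM per kb (log scale) of the 9 gamma loci in every library, open circles for DMSO and filled triangles for PR-957, with the DMSO median of all loci of that modification as a dotted line. The H3K4me1 locus at the internal start of PCDHGC3 is the highest, near 5 CPM per kb against a median of 1.16, and H3K4me3 at the PCDHGC3 promoter lies at its median of 3.14.

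PR-957 did not move any of these loci past the test. In edgeR's quasi-likelihood test with adjustment over all intervals, 0 of 2 H3K27ac, 0 of 3 H3K4me1 and 0 of 4 H3K4me3 loci passed a false discovery rate of 0.05, and 0 of the 26 intervals in these loci passed. The background was 0.238% of 74510 H3K27ac intervals, 1.94% of 108158 H3K4me1 intervals and 0.226% of 59229 H3K4me3 intervals, and at these rates 0 calls among 9 loci is no result about the protocadherins. For H3K27me3, where no locus could be tested, it was 5.92% of 31806. At an unadjusted p under 0.05, edgeR called 0 of the 9 loci and DESeq2 0 as well. The share of all intervals at this unadjusted threshold was not counted, so these counts of 0 say nothing particular of the loci. The alpha and beta clusters, and H3K27me3 in all 3 clusters, gave nothing to test. In 4 of the 9 loci the CPM of both PR-957 libraries lay on 1 side of both DMSO libraries, 2 of 3 for H3K4me1 and 2 of 4 for H3K4me3, where 46.7% of all H3K4me1 and 36.6% of all H3K4me3 intervals did so. For H3K27ac it was 0 of 2, against 36.9%. All these background shares count overlapping intervals, so a locus with several of them enters more than 1 time. The 9 loci enter with 1 interval each.

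The largest difference was in H3K4me3 at PCDHGB3. It measured 0.828 and 0.721 CPM in DMSO and 1.71 and 0.991 CPM in PR-957. Both PR-957 libraries were above both DMSO libraries, but the PR-957 libraries differed from each other more than the lower of them did from DMSO. The log2 fold change was 0.80 with a standard error of 0.435 (edgeR, unadjusted p = 0.0672, adjusted p = 0.703), and its 95% interval ran from 0.962-fold to 3.14-fold. Without the first PR-957 library the log2 fold change was 0.35, and without the second it was 1.13 (adjusted p = 0.969 and 0.395 in edgeR). In these 2 fits PR-957 has 1 library, which is assumed to vary like the DMSO libraries. The counts were 30 to 52 per library. PCDHGB3 is also the one H3K4me3 locus here with a single listed interval, where the other 3 have 4 overlapping ones, and whether this listing rests on 1 library was not tested.

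At the PCDHGC3 promoter, H3K4me3 had 331 to 496 counts per library and a narrower interval. Its difference was -0.07 on the log2 scale with a standard error of 0.109 (edgeR, adjusted p = 0.946). Its 95% interval ran from 0.823-fold to 1.11-fold and covers the spread between these libraries only. Both PR-957 libraries, at 10.9 CPM, were just below the DMSO libraries at 11.1 and 11.8 CPM. H3K27ac at the same promoter was 1.59 and 3.02 CPM in DMSO and 3.62 and 2.81 CPM in PR-957, and the groups overlapped. Its log2 fold change of 0.50 had a standard error of 0.411 (edgeR, adjusted p = 0.839), a wide 95% interval of 0.808-fold to 2.47-fold, and was 0.08 without the first DMSO library and 1.00 without the second. H3K4me1 there was 4.34 and 4.47 CPM in DMSO and 4.62 and 4.00 CPM in PR-957, with overlapping groups and a 95% interval of 0.728-fold to 1.3-fold.

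At the site near the constant exons the 95% intervals were also narrow, and they too cover only the spread between these libraries. H3K4me1 was 111 and 104 CPM in DMSO and 98.2 and 100 CPM in PR-957, with the PR-957 libraries lower. The log2 fold change was -0.11 with a standard error of 0.124 (edgeR, adjusted p = 0.709) and a 95% interval of 0.783-fold to 1.1-fold. With cyclic loess scaling it was 0.045, the other direction. H3K27ac was 12.6 and 14.1 CPM in DMSO and 13.6 and 13.4 CPM in PR-957, and the 95% interval of its change was 0.806-fold to 1.28-fold. H3K4me3 was 8.66 and 7.11 CPM in DMSO and 8.57 and 7.07 CPM in PR-957, with an interval of 0.826-fold to 1.19-fold. In both modifications the DMSO and PR-957 libraries overlapped.

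Of the last 2 loci, H3K4me3 at PCDHGA11 was 2.08 and 1.78 CPM in DMSO and 2.23 and 1.78 CPM in PR-957, with overlapping groups. The 95% interval of its change, 0.676-fold to 1.6-fold, was wide. H3K4me1 at PCDHGC5 was 2.24 and 2.30 CPM in DMSO and 1.54 and 2.09 CPM in PR-957, lower in both PR-957 libraries, with a log2 fold change of -0.30 and a standard error of 0.333 (edgeR, adjusted p = 0.704). Its 95% interval of 0.517-fold to 1.28-fold was wide as well, and the log2 fold change was -0.12 without the first PR-957 library and -0.55 without the second. The median log2 fold change of the gamma loci was 0.26 for H3K27ac, -0.11 for H3K4me1 and 0.02 for H3K4me3, against 0.00 for all intervals of each of these modifications. These medians cover 2 to 4 loci and moved with single libraries. The H3K27ac median was 0.0093 without the first DMSO library, and 0.55 without the second. The H3K4me3 median was -0.090 without the first PR-957 library, -0.038 without the second DMSO library and -0.037 with cyclic loess.

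**Figure D2:**
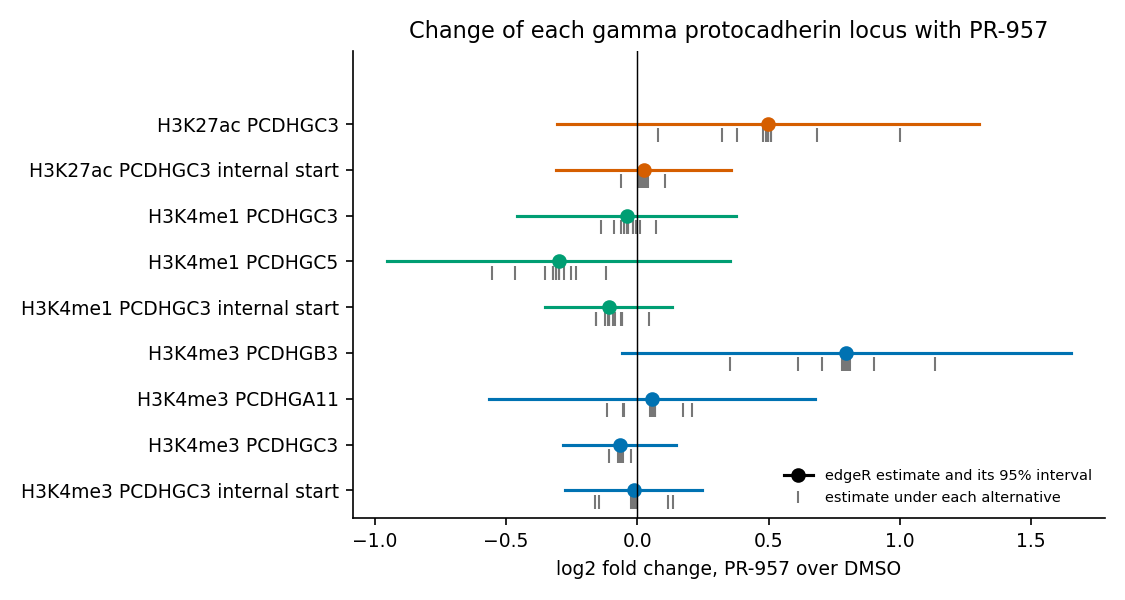
Log2 fold change of each of the 9 gamma loci, PR-957 over DMSO, with its 95% interval from edgeR (point and line) and the estimate under each alternative (grey ticks). Every interval includes 0, and H3K4me3 at PCDHGB3 has the largest estimate, 0.80.

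Most genes that surround the clusters carried marks. For DIAPH1 the widest H3K4me1 interval within 2 kb of an annotated start is the one at the internal start of PCDHGC3. A separate H3K4me1 locus lies over the 5′ end of DIAPH1. The widest interval stands for the gene, so the one at the internal start is counted both here and among the gamma loci. Of 30 other protein-coding genes with a start from 500 kb before the first to 500 kb after the last member, 26 had an H3K4me3 interval, 24 an H3K27ac and 19 an H3K4me1 interval, and 1 (PCDH1) had an H3K27me3 interval. The highest H3K4me3 per length among them was at ANKHD1, 11.3 CPM per kb in DMSO. In none of the 4 modifications did the interval of a neighbour pass in edgeR, with log2 fold changes between -0.26 and 0.23 for H3K4me3, between -0.39 and 0.22 for H3K27ac and between -0.71 and 0.74 for H3K4me1. They share 17 distinct intervals of H3K27ac, 15 of H3K4me1 and 19 of H3K4me3, and with 0.226% to 5.92% of all intervals called per modification, 0 calls says nothing particular of them. The 4 neighbours without H3K4me3 were DND1, SLC4A9, SLC25A2 and ENSG00000279983, and the last 2 of these lie in the empty stretch.

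All 15 genes listed as regulators of these promoters had intervals of H3K4me3 and of H3K27ac, and none had H3K27me3. The list holds CTCF and the cohesin genes RAD21, SMC1A, SMC3, STAG1 and STAG2, the cohesin loaders NIPBL and MAU2 and its release factor WAPL, and the silencing factors SETDB1, TRIM28, SMCHD1, DNMT3B, REST and EZH2. The highest H3K27ac per length was at NIPBL, 15.4 CPM per kb in DMSO, and the highest H3K4me3 at RAD21, 9.05 CPM per kb. None passed in H3K4me3 or H3K27ac. In H3K4me1, where 1.94% of all intervals passed, 1 of 8 passed and was higher in PR-957. This was RAD21, at 3.73 and 3.60 CPM in DMSO and 7.19 and 5.17 CPM in PR-957, with a log2 fold change of 0.73 and a standard error of 0.203 (edgeR, adjusted p = 0.0288). DESeq2 gave it an adjusted p of 0.52. The median over the 8 was 0.01, against 0.00 for all H3K4me1 intervals. Of the 12 non-clustered protocadherins, none passed in any of the 4 modifications, with 6 tested for H3K27me3, 5 for H3K4me3, 3 for H3K27ac and 2 for H3K4me1. At the background shares of 5.92%, 0.226%, 0.238% and 1.94% of all intervals, these counts of 0 are no result about those genes.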

How the data were processed

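Cut&Tag counts for 4 histone modifications in MOLM-13 cells were analysed, with 2 libraries per group. The deposited counts are whole numbers per interval that the authors made without normalization. Per the labels, reads were processed on hg38 with tools that include Bowtie2 2.2.5 and SEACR 1.3, and the counting tool is not named in them. The labels give 72 h of treatment, and one legend of the study gives another time.

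Members were matched to intervals through GENCODE release 44. After filterByExpr with a minimum count of 10 and TMM scaling, PR-957 was compared with DMSO within each modification in edgeR 4.0.16 (quasi-likelihood test, R 4.3.3), adjusting by Benjamini-Hochberg over all intervals, without a replicate block. Scripts were tested on simulated data. CPM use the TMM-scaled library size, and percentiles compare the widest interval of each locus. With 2 libraries against 2, an exact permutation test cannot go below p = 0.333. Intervals cover the spread between these libraries.

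Members and lists were chosen with earlier results of these data known. Named were every locus that passed, in each modification and cluster the widest locus and the one with the highest CPM per kb in DMSO, and of the lists (regulators, non-clustered protocadherins, neighbours) the genes that passed and those with the highest level. As there were 9 loci, all are given. Marker lists were for myeloid, T, B, erythroid, epithelial and neural cells. Alternatives were DESeq2 1.42.0, scaling by library size only, by median-of-ratios factors or by cyclic loess, testing without the count filter or from a mean count of 50, the replicate block, 1 interval per locus, the interval with the highest mean count, a GC trend removed, windows of 1 and 5 kb, gene 5′ ends only, and leaving out each library. Leaving out genes copied in alternate contigs, and counting genes by window, were chosen after seeing the data.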

Additional observations from a re-analysis of the deposited data

How the results depend on the processing

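No protocadherin locus passed a false discovery rate of 0.05 in any of the 4 modifications under any alternative, and the adjusted p ranged from 0.395 to 1 over 123 locus values. Of these, 114 kept the direction of the values above and 9 turned it, all with estimates near 0. The interval with the highest mean count was the one already used, except for H3K4me3 at PCDHGA11. At the other loci this alternative repeats the main value and could not turn it. With library size only, H3K4me1 at PCDHGC3 was 0.0086 on the log2 scale. With cyclic loess offsets, H3K4me1 at the internal start was 0.045 and H3K4me3 at PCDHGA11 was -0.055. Leaving out each library in turn, the range was -0.060 to 0.10 for H3K27ac at the internal start, -0.14 to 0.072 for H3K4me1 at PCDHGC3, -0.11 to 0.21 for H3K4me3 at PCDHGA11 and -0.16 to 0.14 for H3K4me3 at the internal start. For the loci that kept their direction but moved most, the range was -0.55 to -0.12 for H3K4me1 at PCDHGC5 (-0.46 with cyclic loess), 0.35 to 1.13 for H3K4me3 at PCDHGB3 and 0.08 to 1.00 for H3K27ac at PCDHGC3. Each such fit leaves 1 group with 1 library, assumed to vary like the other group. The cause was not tested. At a mean count of 50 the H3K27ac median was 0.042 and the H3K4me3 median -0.010. A mean count of at least 50 left out H3K27ac at PCDHGC3, H3K4me3 at PCDHGB3 and H3K4me1 at PCDHGC5. DESeq2 gave no adjusted p for H3K4me3 at PCDHGB3 and for both H3K27ac loci.

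With a 5 kb window, 5 genes had an H3K4me3 interval, as PCDHGA6 and PCDHGB7 lie near the intervals at PCDHGB3 and PCDHGA11. In that window 3 genes had H3K4me1, with PCDHGC4 added. With a 1 kb window or gene 5′ ends only, the counts of genes were those given above. Neither the labels nor 2 pairs can settle whether the replicate numbers pair the libraries, and the correlation of same-numbered deviations was 0.152 in H3K4me3, -0.00125 in H3K4me1, -0.00888 in H3K27me3 and -0.00498 in H3K27ac. With the replicate block, 0 loci passed in each modification, and H3K4me3 at PCDHGB3 was 0.78 (edgeR, unadjusted p = 0.0336, adjusted p = 0.533). Library size only moved the median of all H3K27me3 intervals by 0.16 on the log2 scale. Depth limits the loci with few counts most, H3K27ac at PCDHGC3 and H3K4me3 at PCDHGB3.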

Other observations

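The intervals closest to the clusters that passed in edgeR were of H3K4me1 and were looked up after the results were seen. Inside DIAPH1, 96 kb from the nearest member start, H3K4me1 (chr5:141585072-141587659) was 1.73 and 1.21 CPM in DMSO and 3.85 and 3.13 CPM in PR-957, higher in both PR-957 libraries. Its log2 fold change was 1.22 with a standard error of 0.307 (edgeR, adjusted p = 0.0127), and DESeq2 gave an adjusted p of 0.35. On the other side, 194 kb before PCDHA1, H3K4me1 outside any protein-coding gene (chr5:140590993-140592456) was 1.49 and 1.71 CPM in DMSO and 3.34 and 3.26 CPM in PR-957, with a log2 fold change of 1.04 and a standard error of 0.306 (edgeR, adjusted p = 0.0415). DESeq2 gave it an adjusted p of 0.485. Each of these sites has a second, overlapping interval that passed in the same direction.

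The lists of 2 other cell types held the remaining calls, both in H3K27me3 and both lower in PR-957. PAX5, a transcription factor of B cells, was 503 and 505 CPM in DMSO and 406 and 390 CPM in PR-957 over 49305 bases, with a log2 fold change of -0.34 and a standard error of 0.0484 (edgeR, adjusted p = 5.74e-09). NEUROG2, a transcription factor of neural precursors, was 179 and 185 CPM in DMSO and 146 and 151 CPM in PR-957, with a log2 fold change of -0.29 and a standard error of 0.0589 (edgeR, adjusted p = 8.91e-05). Of all tested H3K27me3 intervals 5.92% passed in either direction. Scaling by library size only gave -0.18 for PAX5 (adjusted p = 0.000215 in edgeR) and -0.13 for NEUROG2 (adjusted p = 0.138), whose call was lost.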
